A study of Mus musculus with 4 samples.

Results

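A set of 10 genes that sit where TNF family and Toll-like receptors hand their signal to ubiquitin were followed in colon epithelium of wild-type mice and of mice lacking Ezh2 in the intestinal epithelium. They were chosen by name: the adaptors Traf1, Traf2, Traf3, Traf5 and Traf6, the ubiquitin ligases Birc2, Birc3 and Itch, and the deubiquitinases Cyld and Tnfaip3. All 10 were listed in every library, and all 10 passed the filter on low counts, among 18872 genes listed in any library and 13608 genes tested. The study's account links Ezh2, the methyltransferase of Polycomb repressive complex PRC2, to Traf2, Traf5 and Itch.

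Primary colon epithelial cells came from mice given 2% dextran sulfate sodium (DSS), which injures the colon lining, for 3 days. One group was labelled wild type and the other EZH2-IEC-/-, a knockout in intestinal epithelial cells, with 2 libraries in each group. Both groups received DSS, so each difference is between genotypes under injury, and untreated libraries were not analysed here. The promoter that drove the deletion, the age, sex and strain of the mice, and whether each library is from its own mouse are not given in the labels. The p-values therefore reflect the spread of these libraries alone, and that spread may be technical.

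TRAF proteins bind the tails of TNF family receptors, or of kinases downstream of Toll-like and interleukin-1 receptors, and gather ubiquitin ligases there. The cIAP proteins encoded by Birc2 and Birc3 are recruited through TRAF2 and attach ubiquitin to RIPK1 and to other components, which opens the way to the kinases that activate NF-κB. TRAF3 with TRAF2 and the cIAPs keeps the alternative NF-κB kinase NIK low. CYLD and A20, the product of Tnfaip3, edit or remove these ubiquitin chains and limit the signal, and A20 works in part together with ITCH. In textbooks Tnfaip3, Birc3 and Traf1 are themselves NF-κB target genes.

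The promoters of 4 of the genes are shown because they set the gene that rose most, Tnfaip3, beside the textbook NF-κB target Birc3 and beside Traf2 and Traf5, which the study links to Ezh2. Each runs 5′ to 3′ along the gene's strand from 250 bases before to 50 bases after a RefSeq start (build GRCm38.p6). Capitals mark matches on either strand to an NF-κB-like pattern, GGG, then any 5 bases, then CC, and overlapping matches run together. Matches that overlap were counted separately, so the number of matches can exceed the number of marked stretches.
Tnfaip3, minus strand, chr10:19015361-19015660: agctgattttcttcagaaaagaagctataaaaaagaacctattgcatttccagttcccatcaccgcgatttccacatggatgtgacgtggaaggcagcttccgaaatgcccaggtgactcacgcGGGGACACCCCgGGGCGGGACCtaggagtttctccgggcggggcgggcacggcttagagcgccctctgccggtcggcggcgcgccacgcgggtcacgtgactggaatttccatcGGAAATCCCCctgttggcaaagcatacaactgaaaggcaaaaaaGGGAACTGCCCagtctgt
Birc3, minus strand, chr9:7873121-7873420: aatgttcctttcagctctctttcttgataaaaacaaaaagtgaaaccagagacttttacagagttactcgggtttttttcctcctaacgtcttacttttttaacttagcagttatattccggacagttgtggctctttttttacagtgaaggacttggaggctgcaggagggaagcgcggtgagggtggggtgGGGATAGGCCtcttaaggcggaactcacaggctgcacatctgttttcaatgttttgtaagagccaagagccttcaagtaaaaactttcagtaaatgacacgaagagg
Traf2, minus strand, chr2:25546891-25547190: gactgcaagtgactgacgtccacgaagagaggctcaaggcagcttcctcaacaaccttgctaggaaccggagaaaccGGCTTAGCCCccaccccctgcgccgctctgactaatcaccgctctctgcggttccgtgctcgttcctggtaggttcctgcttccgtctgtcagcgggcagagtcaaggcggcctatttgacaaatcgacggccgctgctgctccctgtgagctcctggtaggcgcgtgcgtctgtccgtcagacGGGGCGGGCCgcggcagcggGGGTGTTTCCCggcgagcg
Traf5, minus strand, chr1:192092550-192092849: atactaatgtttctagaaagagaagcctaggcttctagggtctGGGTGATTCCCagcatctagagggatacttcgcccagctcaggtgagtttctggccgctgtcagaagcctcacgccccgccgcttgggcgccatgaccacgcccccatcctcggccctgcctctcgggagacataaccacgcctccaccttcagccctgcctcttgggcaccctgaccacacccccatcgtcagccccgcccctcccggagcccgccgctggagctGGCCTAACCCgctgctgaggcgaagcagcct
This Tnfaip3 window held 6 matches, one of them GGAAATCCCC, which begins 12 bases before the start. A second RefSeq start of Tnfaip3, whose window is not shown (chr10:19011914-19012213), had 2 matches. The Birc3 window held 1 match, Traf2 4 and Traf5 3. RefSeq promoters were matched for 9 of the 10 genes, all except Itch, and 7 of these 9 held a match in at least 1 window, Traf1 and Birc2 being those without. The pattern is common: 50.8% of all 32851 promoter windows of this length held it. Counted in the same way, by window and not by gene, 8 of the 11 windows of these 9 genes held it. A match is a description of letters, not evidence of binding.

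In every library the level in FPKM, a read count scaled to transcript length and library size, placed Birc3, Tnfaip3 and Itch above the other 7 genes. In wild type, Birc3 averaged 24.84 ± 2.32 FPKM (SD, n = 2), Tnfaip3 23.28 ± 0.91 and Itch 18.91 ± 2.23. Traf2, Birc2 and Cyld followed at 9.21 ± 0.37, 9.02 ± 0.47 and 8.29 ± 1.00 FPKM. Their libraries overlapped from one gene to the next, so the order within this trio was not separated. Traf3, Traf6, Traf5 and Traf1 were lowest, at 5.36 ± 0.17, 4.37 ± 0.71, 3.67 ± 0.04 and 3.25 ± 0.97 FPKM, and the libraries of Traf5 and Traf1 overlapped. In knockout the top place passed from Birc3 to Tnfaip3, whose lowest knockout library, 38.0 FPKM, lay above the highest Birc3 library, 24.08 FPKM. The other changes in order were between Cyld and Birc2, which overlapped in wild type and did not in knockout.

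**Figure D1:**
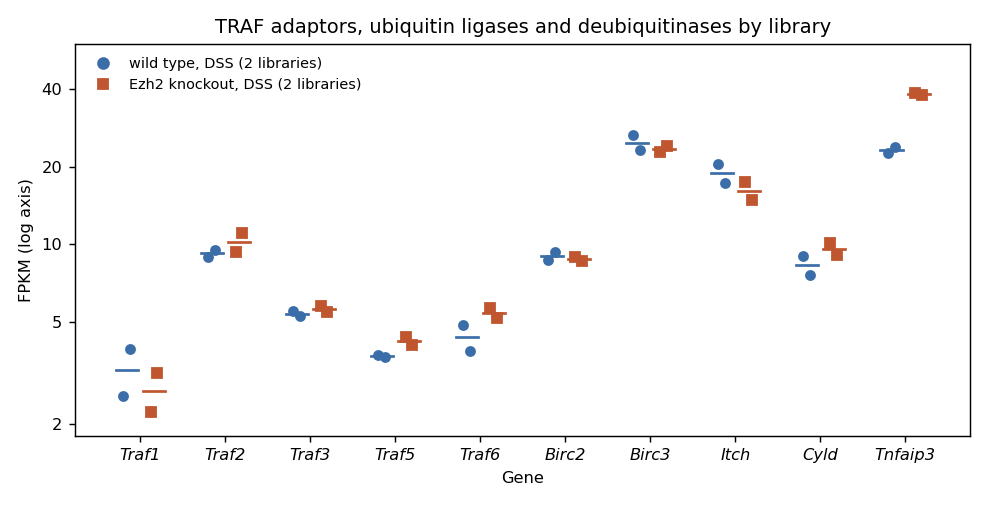
FPKM of the 10 genes (log axis) in each library, with wild type as circles, knockout as squares and a bar at the mean of each pair. Tnfaip3 is the gene whose knockout libraries, 38.77 and 38.0 FPKM, lie farthest above its wild-type libraries, 22.64 and 23.92 FPKM.

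Between genotypes, 2 of the 10 genes were called higher in knockout, Tnfaip3 and Traf6, and 0 were called lower. At an unadjusted p under 0.05 edgeR had 3 higher and 0 lower, and DESeq2 called 1 higher and 0 lower. A gene was called at an adjusted p under 0.05 in edgeR (quasi-likelihood, Benjamini-Hochberg over all 13608 genes). Genotype differences were widespread in these libraries: 43.7% of all genes tested were called, 23.0% higher and 20.8% lower, so 2 of 10 is a smaller share than the background. The median log2 fold change of the 10 genes, knockout minus wild type, was 0.21, against -0.002 over all genes tested. The median of their absolute log2 fold changes was also 0.21, against 0.42 over all genes. FPKM values of the genotypes did not overlap for 4 of the 10 genes, Tnfaip3, Traf6, Cyld and Traf5, all higher in knockout, while 73.0% of all genes tested did not overlap, 30.4% with knockout higher.

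**Figure D2:**
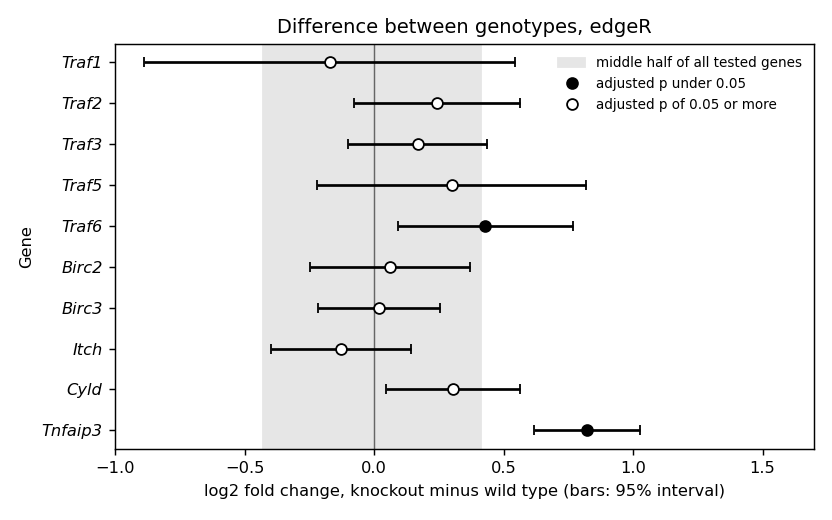
Log2 fold change (knockout minus wild type) of the 10 genes from edgeR, with 95% intervals from 2 libraries per group; filled points have an adjusted p under 0.05, and the grey band spans the central 50% of all tested genes. Tnfaip3, at 0.82, is the gene whose interval lies wholly beyond that band.

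Among the adaptors, Traf2, which carries TNF receptor and CD40 signals to the cIAPs, had 138 and 152 counts in wild type against 154 and 184 in knockout. Its FPKM was 8.95 and 9.48 in wild type against 9.3 and 11.02 in knockout, so the genotypes overlapped. The log2 fold change was 0.24 ± 0.14 (SE), with a 95% interval of -0.08 to 0.56 and an adjusted p of 0.195 in edgeR. On the linear scale this is 1.18-fold with an interval of 0.95 to 1.48, so these libraries do not separate no difference from a rise by that upper bound.

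Traf5, a close relative of Traf2 with overlapping roles, was low, with 3.7 and 3.64 FPKM in wild type against 4.35 and 4.07 FPKM in knockout. Both knockout libraries were above both wild-type libraries. These values rest on 42 and 43 counts in wild type against 53 and 50 in knockout, so counting error was large beside the difference. The log2 fold change was 0.30 ± 0.23, with an interval of -0.22 to 0.82 and an adjusted p of 0.323 in edgeR, and it was not called. In fold terms the estimate was 1.23, with an interval of 0.86 to 1.76.

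Traf6, the adaptor of Toll-like and interleukin-1 receptor signalling and itself a ubiquitin ligase for K63 chains, had 150 and 125 counts in wild type against 189 and 176 in knockout. Its FPKM was 4.87 and 3.86 in wild type against 5.65 and 5.15 in knockout, so it rose in both knockout libraries. The log2 fold change was 0.43 ± 0.15, with an interval of 0.09 to 0.77 and an adjusted p of 0.0438 in edgeR. The call was narrow: it was lost without wild-type replicate 2 (0.28) and without knockout replicate 1 (0.36). It was not lost without wild-type replicate 1 (0.59) or without knockout replicate 2 (0.49). DESeq2 gave the same size, 0.43, with an adjusted p of 0.159. Scaling by library totals alone gave 0.33 with an adjusted p of 0.106. With genes quantified on the same transcripts in all libraries the call held (0.42, adjusted p = 0.0332 in edgeR).

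Traf3, a brake on the alternative NF-κB pathway and an adaptor for interferon induction, was nearly level, at 5.48 and 5.24 FPKM in wild type against 5.73 and 5.45 FPKM in knockout. The genotypes overlapped, and the log2 fold change was 0.17 ± 0.12 with an interval of -0.10 to 0.43 (adjusted p = 0.281 in edgeR). Traf1, a TRAF protein without a RING domain that is abundant in activated lymphocytes, was the lowest adaptor. It had 30 and 48 counts in wild type against 28 and 40 in knockout, or 2.56 and 3.93 against 2.22 and 3.15 FPKM. The libraries of a genotype differed more than the genotypes did. Its log2 fold change, -0.17 ± 0.32, had the widest interval of the 10 genes, -0.89 to 0.54 (adjusted p = 0.69 in edgeR).

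The cIAP ligases did not separate by genotype. Birc3, or cIAP2, was at 26.48 and 23.2 FPKM in wild type against 22.8 and 24.08 FPKM in knockout, with a log2 fold change of 0.02 ± 0.10. Its interval, -0.22 to 0.25, was among the narrowest of the 10 genes and corresponds to 0.86-fold to 1.19-fold (adjusted p = 0.9 in edgeR). Birc2, or cIAP1, was at 8.69 and 9.36 FPKM in wild type against 8.95 and 8.57 FPKM in knockout, with a log2 fold change of 0.06 ± 0.14 and an interval of -0.25 to 0.37 (adjusted p = 0.746 in edgeR). The 2 genes are neighbouring close paralogs and their deposited counts were not whole in any library, so reads may have been split between them. With their counts summed, an alternative added after the values were seen, the log2 fold change was 0.03 (adjusted p = 0.808 in edgeR). Birc2 was also quantified on 1 transcript in the replicate 1 libraries and on 2 in the replicate 2 libraries of both genotypes.

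Itch, a HECT-type ligase of the NEDD4 family, was at 20.49 and 17.33 FPKM in wild type against 17.4 and 14.79 FPKM in knockout. The highest knockout library was just above the lowest wild-type library. The log2 fold change was -0.13 ± 0.12, with an interval of -0.40 to 0.14 and an adjusted p of 0.414 in edgeR, or 0.91-fold with an interval of 0.76 to 1.10. Itch was thus not called, and the interval bounds a fall at 0.76-fold. Its deposited counts, like those of Cyld, were not whole, so some of their reads were assigned in part.

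Tnfaip3 was the member that differed most. The gene encodes A20, which restrains NF-κB signalling and protects epithelium from TNF-induced death. It had 511 and 557 counts in wild type against 934 and 925 in knockout. FPKM was 22.64 and 23.92 in wild type against 38.77 and 38.0 in knockout, with a gap between genotypes many times the spread within either. The log2 fold change was 0.82 ± 0.09 with an interval of 0.62 to 1.03, or 1.77-fold (1.54 to 2.04), and an adjusted p of 0.000124 in edgeR. The call held under all 14 other settings tried on these 2 groups, with log2 fold changes from 0.68 to 0.86 and adjusted p-values up to 0.00181. A larger absolute log2 fold change was seen in 22.4% of all genes tested. Tnf itself, measured the same way, was at 0.75 and 1.31 FPKM in wild type against 13.09 and 13.55 FPKM in knockout. The wild-type values rest on 6 and 11 counts. Whether Tnf and Tnfaip3 are linked here, and which cells the Tnf reads came from, was not tested.

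Cyld, which removes K63-linked and linear chains, was at 9.0 and 7.58 FPKM in wild type against 10.13 and 9.06 FPKM in knockout. Both knockout libraries were above both wild-type libraries, the closest pair differing by little. The log2 fold change was 0.30 ± 0.11 with an interval of 0.05 to 0.56, and the adjusted p of 0.057 in edgeR missed the threshold. It passed without wild-type replicate 1 (0.43, adjusted p = 0.0317) and without knockout replicate 2 (0.38, adjusted p = 0.043), but not without wild-type replicate 2 (0.19, adjusted p = 0.355) or without knockout replicate 1 (0.21, adjusted p = 0.247). With genes restricted to those quantified on the same transcripts in all libraries it narrowly passed (0.30, adjusted p = 0.0496 in edgeR). With library totals alone it was 0.20 (adjusted p = 0.179).

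Ratios of genes within a library do not depend on how libraries are scaled to each other, and 8 pairs were compared. With 2 libraries against 2, the exact two-sided permutation test cannot give a p below 0.333, before any adjustment over the pairs. The ratio of Tnfaip3 to Cyld in FPKM was 2.52 and 3.16 in wild type against 3.83 and 4.19 in knockout (exact p = 0.333). The genotypes did not overlap in this ratio, and the log2 ratio was 0.51 higher in knockout (pooled SD 0.18). The ratio of Birc3 to Birc2 overlapped, at 3.05 and 2.48 in wild type against 2.55 and 2.81 in knockout.

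Set against Traf2, Itch was at 2.29 and 1.83 times its FPKM in wild type against 1.87 and 1.34 times in knockout. These values overlapped narrowly, and the log2 ratio differed by -0.37 (pooled SD 0.29, exact p = 0.667). Traf5 to Traf2 was 0.41 and 0.38 in wild type against 0.47 and 0.37 in knockout, Traf3 to Traf2 0.61 and 0.55 against 0.62 and 0.49, and Traf6 to Traf2 0.54 and 0.41 against 0.61 and 0.47. In each of these 3 pairs the genotypes overlapped. Traf1 to Traf2 was 0.29 and 0.41 in wild type against 0.24 and 0.29 in knockout, with the closest values equal to 2 decimals. Unrounded, the genotypes did not overlap in this ratio, and its log2 value differed by -0.40 (pooled SD 0.30, exact p = 0.333). Birc3 to Traf2 overlapped, with a log2 ratio that differed by -0.22 in knockout (pooled SD 0.16).

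**Figure D3:**
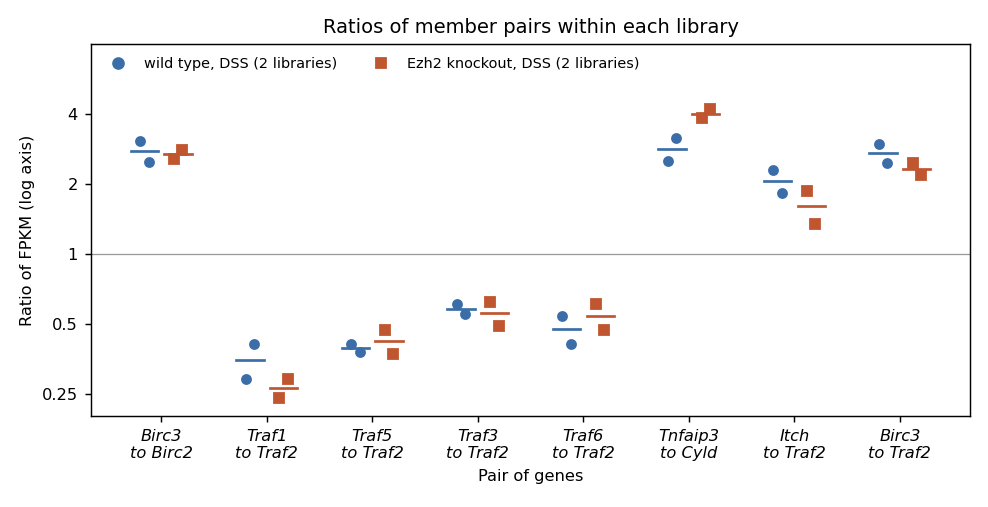
Ratio of FPKM values of 8 gene pairs within each library (log axis), with wild type as circles, knockout as squares and a bar at the mean of each pair of libraries. Tnfaip3 to Cyld does not overlap between genotypes, at 3.83 and 4.19 in knockout against 2.52 and 3.16 in wild type. Traf1 to Traf2 does not overlap either, though its closest values nearly meet, and the other pairs overlap.

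Around these 10 genes, 8 lists of partners held 78 genes, of which 74 were tested. Of the 74, 19 were called higher and 14 lower, 44.6% in all, close to the 43.7% of all genes. Of all genes tested, 23.0% were called higher and 20.8% lower. Without wild-type replicate 2 the higher count was 12, and without wild-type replicate 1 the lower count was 9. The balance turned with scaling: 9 were higher and 20 lower with library totals alone. Called partners of A20 and ITCH moved in both directions. Tnip3, which encodes the A20-binding protein ABIN-3, was at 5.43 and 5.12 FPKM in wild type and rose to 28.28 and 25.28 FPKM in knockout (log2 fold change 2.44 ± 0.11, adjusted p = 8.56e-07 in edgeR). Tnip1, which encodes ABIN-1, fell from 51.43 and 54.37 FPKM to 27.12 and 31.19 FPKM (log2 fold change -0.78 ± 0.10, adjusted p = 0.000299). The list had 7 genes, of which 2 rose and 1 fell, with a median log2 fold change of 0.19. With library totals alone and with each of the 3 limma fits of FPKM, 1 rose and 3 fell, and the median was -0.05 with quantile normalized FPKM. Tax1bp1, an A20 adaptor, had a log2 fold change of 0.35 ± 0.10 (adjusted p = 0.0167), a call lost with library totals alone (0.25, adjusted p = 0.0641), with quantile normalized FPKM (0.032, adjusted p = 0.828) and with both other limma fits (0.24, adjusted p = 0.0937 and 0.0982), and also without wild-type replicate 2 (0.28, adjusted p = 0.123) and without knockout replicate 1 (0.22, adjusted p = 0.0971). The ITCH activators Ndfip1 and Ndfip2 were not called, at 0.19 and -0.14.

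Most other ligases of the NEDD4 family were lower in knockout, where edgeR called 20.8% of all genes tested lower and 23.0% higher. Of 6 tested, 5 fell and 0 rose in edgeR (5 and 0 at an unadjusted p under 0.05, 4 and 0 in DESeq2), with a median log2 fold change of -0.45, and the direction was the same under every scaling. Wwp2 fell from 55.5 and 60.34 FPKM in wild type to 25.16 and 26.49 FPKM in knockout (log2 fold change -1.06 ± 0.09, adjusted p = 3.24e-05 in edgeR). Nedd4 and Smurf1 fell by 0.41 and 0.55 on the log2 scale (adjusted p = 0.0024 and 0.00532). The count was 3 without wild-type replicate 1 and 3 with quantile normalized FPKM. Nedd4l was not called (-0.13 ± 0.10, adjusted p = 0.33), and Hecw1 and Hecw2 had too few counts to be tested. Whether Itch differs from these relatives was not tested.

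The ubiquitin-conjugating enzymes (E2s) of this signalling, which serve K63, linear and other chains, were mostly higher by small amounts in edgeR. Over all genes tested, edgeR called 23.0% higher and 20.8% lower. Of 8 E2 genes, 6 rose and 0 fell in edgeR (median log2 fold change 0.35), with 6 and 1 at an unadjusted p under 0.05 and 4 and 0 in DESeq2, but 3 rose and 1 fell with library totals alone, and 1 rose and 1 fell with quantile normalized FPKM. Ube2n, which encodes UBC13, the E2 that works with TRAF6, rose from 27.24 and 23.84 FPKM to 36.3 and 32.34 FPKM (log2 fold change 0.53 ± 0.11, adjusted p = 0.00392 in edgeR). Its partner Ube2v1 and the linear chain E2 Ube2l3 rose by 0.40 and 0.47 on the log2 scale. Without knockout replicate 1 or without wild-type replicate 2, 3 of the E2 genes rose. Of 5 tested genes of linear chain assembly and removal, 0 rose and 1 fell in edgeR (1 and 1 at an unadjusted p under 0.05, 0 and 0 in DESeq2). The 1 that fell was Spata2, the bridge between CYLD and the linear chain ligase (-0.38 ± 0.10, adjusted p = 0.0168), a call lost in DESeq2 (adjusted p = 0.0996). That call was also lost without wild-type replicate 1 (-0.32, adjusted p = 0.123) and without knockout replicate 1 (-0.35, adjusted p = 0.0692).

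Of 8 other TRAF family and TRAF-binding genes, 2 rose and 0 fell in edgeR (3 and 0 at an unadjusted p under 0.05, 1 and 0 in DESeq2). The shares over all genes tested in edgeR were 23.0% higher and 20.8% lower. Trafd1, an interferon-inducible zinc finger protein that binds TRAF6, rose by 1.21 ± 0.13 (adjusted p = 0.0001 in edgeR), from 19.68 and 24.42 FPKM to 44.19 and 51.13 FPKM. Traip rose by 1.10 ± 0.37 (adjusted p = 0.0412), a call lost without knockout replicate 2 (0.61, adjusted p = 0.295) and without wild-type replicate 1 (0.90, adjusted p = 0.143). Traf4 and Traf7, the remaining TRAF genes, were not called, with log2 fold changes of -0.01 and 0.14. Of 14 other deubiquitinases tested, 2 rose and 3 fell in edgeR, 1 rose and 2 fell in DESeq2 and without wild-type replicate 2, and 1 rose and 4 fell with library totals alone. Usp18, which removes the ubiquitin-like ISG15, rose by 1.36 ± 0.18, and Usp2 and Otub1 fell by 0.75 and 0.67 on the log2 scale.

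Among 9 other IAP genes and antagonists, 3 rose and 1 fell in edgeR, 2 rose and 0 fell in DESeq2, and 2 rose and 2 fell with library totals alone. In edgeR 23.0% of all genes tested were called higher and 20.8% lower. Birc5, or survivin, which acts in mitosis, rose by 1.72 ± 0.11, and Htra2, a mitochondrial protease that antagonises IAPs, by 0.70 ± 0.14. Naip2, one of a cluster of near-identical copies whose reads may be split, had a log2 fold change of -0.32 ± 0.09 (adjusted p = 0.0202 in edgeR) and was not called in DESeq2 (adjusted p = 0.0735), nor without either wild-type library or without knockout replicate 2 (adjusted p = 0.0673 to 0.0886). Xiap was level at -0.04 ± 0.11. Of 17 kinases and readers downstream of the TRAFs, 4 rose and 3 fell in edgeR, with a median of 0.11. Only 2 rose without wild-type replicate 2, without knockout replicate 1 and in DESeq2, and 1 rose and 4 fell with library totals alone. Map3k1 and Map3k5, the stress kinases MEKK1 and ASK1, fell by 0.70 and 0.82, and Ikbke, an inducible IKK-related kinase, rose by 0.68. Ripk1, the main substrate of the cIAPs, had a log2 fold change of 0.20 ± 0.10 and was not called (adjusted p = 0.153).

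**Figure D4:**
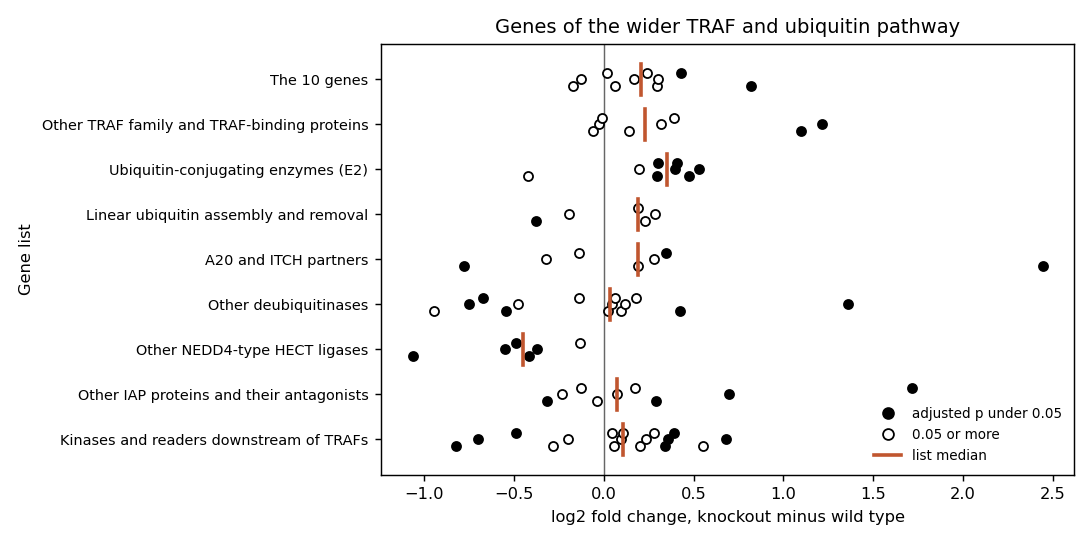
Log2 fold change (knockout minus wild type, edgeR) of each tested gene of the 8 partner lists and of the 10 genes themselves; filled points have an adjusted p under 0.05 and bars mark list medians. The NEDD4-type ligases lie below 0, with a median of -0.45, and Tnip3 lies farthest right, at 2.44.

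The libraries held 5037367 to 5446998 estimated counts. All 10 fixed markers of colon epithelium were present, with summed levels of 11490 to 11880 FPKM in wild type and 12980 to 13510 FPKM in knockout, and 7 of them rose and 2 fell. Krt20, a keratin of mature surface cells, rose by 1.25 ± 0.07 on the log2 scale, while the adhesion genes Cdh1 and Epcam fell by 0.60 and 0.27 (adjusted p = 0.000148 and 0.0182 in edgeR). Ezh2 had 105 and 102 counts in wild type against 86 and 83 in knockout and was not called (adjusted p = 0.217 in edgeR). The deleted part of Ezh2 is not named in the labels, so its count is no check of them. Markers of other cells moved with genotype beside the rise of Tnfaip3, a gene that leukocytes also express. Among all genes tested, edgeR called 23.0% higher and 20.8% lower. Of 9 T and NK cell markers, 8 rose and 0 fell in edgeR (8 and 0 at an unadjusted p under 0.05, 7 and 0 in DESeq2), from summed levels of 16.15 to 17.46 FPKM to levels of 63.26 to 69.27 FPKM, with Nkg7 at 0 in 1 wild-type library. Of 4 neutrophil markers, 3 rose (6.95 to 10.32 against 131.7 to 155.4 FPKM). Most of that sum in knockout came from S100a8 and S100a9, whose means went from 2.13 and 0.95 FPKM to 93.78 and 41.94 FPKM. Csf3r rose from a mean of 0.79 to 2.00 FPKM. Cxcr2, at 4.75 against 5.83 FPKM, overlapped and was not called (adjusted p = 0.339 in edgeR). Of 8 macrophage and dendritic cell markers, 6 rose (264.3 to 288.6 against 360.7 to 410.7 FPKM). Lyz2 made up most of that sum, with a mean of 174.0 FPKM in wild type and 219.8 FPKM in knockout. Ptprc, the marker of all leukocytes, rose from 8.75 and 8.27 to 9.46 and 11.39 FPKM (log2 fold change 0.38, adjusted p = 0.0303 in edgeR). It was not called in DESeq2. Of 4 B cell markers 3 fell (70.72 to 70.81 against 33.09 to 48.96 FPKM). Among 7 fibroblast and smooth muscle markers 6 fell (1707 to 1875 against 790.3 to 1004 FPKM). Most of that sum came from Acta2 and Tagln, whose means went from 453.4 and 1028.3 FPKM to 208.8 and 472.9 FPKM. Col1a1 was not called (adjusted p = 0.217 in edgeR). Of 3 endothelial markers 2 fell (14.25 to 15.37 against 8.74 to 10.57 FPKM). The part of these other cells in the values of the 10 genes was not tested. In bulk libraries fewer cells of a type and less RNA per cell cannot be told apart.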

How the data were processed

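Libraries of total RNA were prepared with a TruSeq kit, per the labels' protocols. The authors deposited, per library, an expected count (an estimated read count that need not be whole), FPKM and a transcript length in bases (unit other) for each gene, per the file headers. Bowtie2 and BWA are named, without roles, in the submitters' processing notes, as is hg19, which is not a mouse build, so no gene coordinates are given. The sources used here do not give the quantifier. Entrez identifiers were matched to RefSeq symbols for 18820 of 18872 genes, and unlisted genes were taken as 0. Promoter coordinates are those of the RefSeq table.

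Rounded expected counts went into edgeR 4.0.16 under R 4.3.3 (genes kept by filterByExpr, TMM scaling, quasi-likelihood F test, 2 against 2 libraries, two-sided). Standard errors are the size of the log2 fold change over the square root of F, and 95% intervals use its degrees of freedom. The biological coefficient of variation was 12.9%. Chi-square per degree of freedom between libraries was 2.18 in wild type and 2.95 in knockout, so libraries of a group differed beyond counting noise and were kept separate. Alternatives used limma 3.58.1 and DESeq2 1.42.0. The tests were checked on simulated data in which 200 genes changed, far fewer than were called in these libraries. That check therefore does not cover scaling where many genes differ. Genes named outside the 10 are, by rule, Ezh2, Tnf and up to 3 called genes with the smallest p in each list. Outside that rule, Ndfip1, Ndfip2, Traf4, Traf7, Xiap, Ripk1 and the markers were added after their values were seen. Nedd4l, which was not called, and Hecw1 and Hecw2, which were not tested, are named outside it too. The members and lists were chosen with earlier results of these data known. No protein sequences were used here.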

Additional observations from a re-analysis of the deposited data

How the results depend on the processing

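Tnfaip3 was called higher under all 14 other settings, and Traf1, Traf2, Traf3, Traf5, Birc2, Birc3 and Itch under none of the 13 or 14 run for each. The number of the 10 genes called higher, 2, was 3 with genes of the same transcripts, where Cyld joined (adjusted p = 0.0496 in edgeR). It was 1 with DESeq2, with library totals alone, with upper quartile factors, with no filter, with a mean FPKM of at least 5 and with each of the 3 limma fits of FPKM. Left-out libraries gave 1 to 3, with 1 without wild-type replicate 2 or knockout replicate 1. The filter at 5 FPKM removed Traf1, Traf5 and Traf6, and the restriction to genes with the same transcripts removed Birc2, so they have no value there. Directions turned for genes near no difference, none of them called. Birc3 was -0.082 with library totals alone, -0.025 with upper quartile factors, -0.054 with the FPKM filter, -0.078, -0.081 and -0.088 with limma on log2(FPKM + 1), log2(FPKM + 0.1) and quantile normalized values, -0.020 without knockout replicate 2 and -0.074 without wild-type replicate 2. With a library left out Birc3 ranged from -0.074 to 0.12, Birc2 from -0.032 to 0.16 and Traf1 from -0.45 to 0.17. Birc2 was -0.040 with library totals alone, -0.012 with the FPKM filter, -0.038 and -0.042 with limma and -0.032 without wild-type replicate 1. Traf1 was 0.17 without wild-type replicate 2 and 0.044 without knockout replicate 1. Of the partner genes, 19 higher became 12 with DESeq2, 9 with library totals alone, 10 with the FPKM filter, 9 with each limma fit, and 12 to 15 with a library left out, the fewest without wild-type replicate 2. The 14 lower became 9 with DESeq2, 20 with library totals alone, 16 to 19 with limma and 9 to 13 with a library left out, the fewest without wild-type replicate 1. The causes were not tested.

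Library totals alone moved the median log2 fold change of all genes to -0.103, and higher genes from 52.5% to 42.4% of those called. With limma they were 43.7% on log2(FPKM + 1). The replicate numbers are not said to pair libraries. Deviations from the group means correlated at 0.743 between same-numbered libraries over 10065 genes with a mean of at least 50 counts. Genes such as Birc2, whose transcripts differed by replicate number in both genotypes, were not left out, and their part in this value was not tested. With the replicate block, 3 of the 10 genes were called higher, Cyld (0.31, adjusted p = 0.0028) beside Tnfaip3 and Traf6, and of all genes 3855 were higher and 3548 lower. No other of the 10 calls changed. With 28 to 53 counts in a library, Traf1 and Traf5 are the genes whose precision depth limits most.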
